A study of Mus musculus with 14 samples.

Results

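The genes described here are 10 regulators of inflammatory signalling in the liver, chosen by name as members of the interleukin 6 (IL6), STAT3 and C/EBP pathway. They are the receptor genes Il6ra, Il6st, Lifr and Il1r1, the secreted antagonist Il1rn, the signalling genes Stat3 and Socs3, and the nuclear regulators Cebpb, Cebpd and Nfkbiz. All 10 were among the 24411 genes counted, and all 10 passed the filter on low counts, which left 9644 genes tested. IL6 binds its receptor, encoded by Il6ra, and the pair engages gp130, the signal-transducing chain encoded by Il6st. Janus kinases bound to gp130 then phosphorylate STAT3, which enters the nucleus and switches on acute-phase genes together with C/EBP factors. SOCS3 is induced by STAT3 and closes the loop by blocking gp130 and the kinases.

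RNA came from the livers of male littermates, 5 to 7 months old, in a design of genotype by treatment. WT mice carried floxed Rbbp5 alleles on both chromosomes and no Alb-Cre, while LKO mice (written RRBP5 LKO in the sample titles) carried the same floxed alleles with Alb-Cre on 1 chromosome. The albumin promoter drives Cre in hepatocytes, and which other liver cells keep Rbbp5 was not measured here. Rbbp5 encodes a shared subunit of histone H3 lysine 4 methyltransferase complexes. Mice of each genotype were injected intraperitoneally with 0.05 mg/kg tunicamycin, which blocks N-linked glycosylation and so stresses the endoplasmic reticulum, in 500 µl of PBS with 3% DMSO, or with that vehicle alone. Dosing took place from 9 to 10 am and the liver was collected after 8 h. The groups were WT vehicle (3 samples), WT tunicamycin (3), LKO vehicle (3, from 4 libraries) and LKO tunicamycin (4). The titles number the replicates without naming the mice, so the p-values measure the spread between these samples, which may be partly technical.

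Depth ran from 6507018 to 13519421 sense-strand reads on genes per library, of which 72.5 to 75.5% fell on Rn45s, the ribosomal RNA precursor. LKO vehicle libraries 3 and 4 differed by less than the other replicate pairs, close to sampling noise (chi-square per degree of freedom 1.12, against 3.38 to 25.9 for the other 17 pairs), and their reads were summed into 1 sample, written 3+4. Rbbp5 itself averaged 5.19 ± 1.17 CPM (TMM-scaled reads; SD, n = 3) in WT vehicle, 5.37 ± 0.343 in WT tunicamycin (n = 3), 2.94 ± 1.13 in LKO vehicle (n = 3) and 2.86 ± 0.598 in LKO tunicamycin (n = 4). The LKO vehicle range (1.90 to 4.15 CPM) overlapped the WT vehicle range (4.07 to 6.41 CPM), from 19 to 50 reads per sample over all groups. Of the 7 hepatocyte markers examined, none was at 0 in any group, and their summed level lay between 20063 and 30674 CPM. Some libraries stood apart from their groups. WT tunicamycin 3 correlated across tested genes with the WT vehicle mean (r = 0.32) and inversely with the other WT tunicamycin samples (r = -0.17), on log2 CPM centred on the mean of all samples. LKO vehicle 2 had Lcn2, an acute-phase gene, at 5.81 above the WT vehicle mean on the log2 CPM scale, against 2.11 and 2.69 in the other LKO vehicle samples. Member results that rest on these samples are given with and without them, while medians of gene lists are given with all samples only. Both samples were singled out from these same data, so a call gained without either is no added support.

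Promoters from RefSeq (build GRCm38.p6, from 250 bases before to 50 bases after a transcript start) were found for 8 of the 10 genes, with 12 promoters in all. Those of Socs3 and Il6ra are shown because these are the members called below, and that of Stat3 because it is the pathway's transcription factor. Capitals mark the letters of a motif, read on either strand, and each sequence runs 5′ to 3′ along the gene. The Socs3 promoter is chr11:117969317-117969616 on the minus strand, that of Il6ra is chr3:89913147-89913446 on the minus strand, and that of Stat3 is chr11:100939491-100939790 on the minus strand.
Socs3: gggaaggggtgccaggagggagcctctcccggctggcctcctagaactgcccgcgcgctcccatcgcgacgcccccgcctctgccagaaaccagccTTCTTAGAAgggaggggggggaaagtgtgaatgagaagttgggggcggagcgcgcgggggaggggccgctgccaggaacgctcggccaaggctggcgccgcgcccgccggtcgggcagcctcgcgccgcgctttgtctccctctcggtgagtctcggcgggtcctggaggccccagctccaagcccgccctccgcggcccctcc
Il6ra: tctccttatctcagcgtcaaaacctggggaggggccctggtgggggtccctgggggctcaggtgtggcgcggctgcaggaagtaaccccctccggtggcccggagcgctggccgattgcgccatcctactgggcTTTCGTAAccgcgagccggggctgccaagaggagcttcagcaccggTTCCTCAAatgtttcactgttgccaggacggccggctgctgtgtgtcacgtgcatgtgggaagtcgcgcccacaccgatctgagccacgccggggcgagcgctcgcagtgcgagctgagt
Stat3: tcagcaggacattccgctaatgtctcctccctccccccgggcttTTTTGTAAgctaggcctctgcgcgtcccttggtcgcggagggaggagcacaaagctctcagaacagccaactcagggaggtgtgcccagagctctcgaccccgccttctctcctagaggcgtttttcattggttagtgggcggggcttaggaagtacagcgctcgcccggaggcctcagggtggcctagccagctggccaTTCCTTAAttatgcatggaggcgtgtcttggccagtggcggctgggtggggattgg
The STAT letters TTCNNNGAA were present in the promoter of 1 of the 8 genes, Socs3, as TTCTTAGAA beginning at position -154 from the start, and in 8.3% of 32851 mouse promoters of the same length. The loose C/EBP letters TTNCNNAA were present for Stat3, Il6ra, Il1r1 and Il1rn, and in 40.7% of all promoters. In Il6ra these were TTTCGTAA at -116 and TTCCTCAA at -70. In Stat3 they stood at -206 and -6. The NF-kB letters GGGNNTTCC were found for Il1r1 alone (5.82% of all promoters). Neither the palindromic C/EBP letters TTGCGCAA (0.183% of all promoters) nor the cAMP response element TGACGTCA (1.79%) was found for any of the 8 genes, and a match describes the letters only. In the downstream Il1r1 promoter the NF-kB and C/EBP letters overlap.

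Levels between genes were compared per transcript length, as FPKM (fragments normalised for transcript length and depth), averaged over the 13 samples. Cebpb, encoding a basic leucine zipper activator of acute-phase genes, was the highest at 11.3 FPKM (8.07 to 14.99 over samples). Next came Lifr, the receptor chain for leukemia inhibitory factor, at 7.96 FPKM, and Il6st at 5.47. The middle of the order held Il1r1 at 3.33, Stat3 at 3.09 and Il6ra at 2.41 FPKM. The lowest were Cebpd at 0.711, Socs3 at 0.531, Nfkbiz at 0.377 and Il1rn at 0.298 FPKM. Il6ra lay above Cebpd in all 13 samples. The order of Il1r1 over Stat3 held in 7 of 13 samples, that of Socs3 over Nfkbiz also in 7, and that of Nfkbiz over Il1rn in 8, so these neighbours did not differ beyond the spread of the samples. In the plot of per-length levels the means of the 6 higher genes are at least 2.41 FPKM and those of the 4 lower ones at most 0.711, though single samples overlap (Socs3 up to 1.57, Il6ra down to 1.44 FPKM). The 4 lower genes carried few reads: 11 to 58 per sample for Socs3, 3 to 35 for Il1rn, 10 to 57 for Cebpd and 9 to 51 for Nfkbiz.

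**Figure D1:**
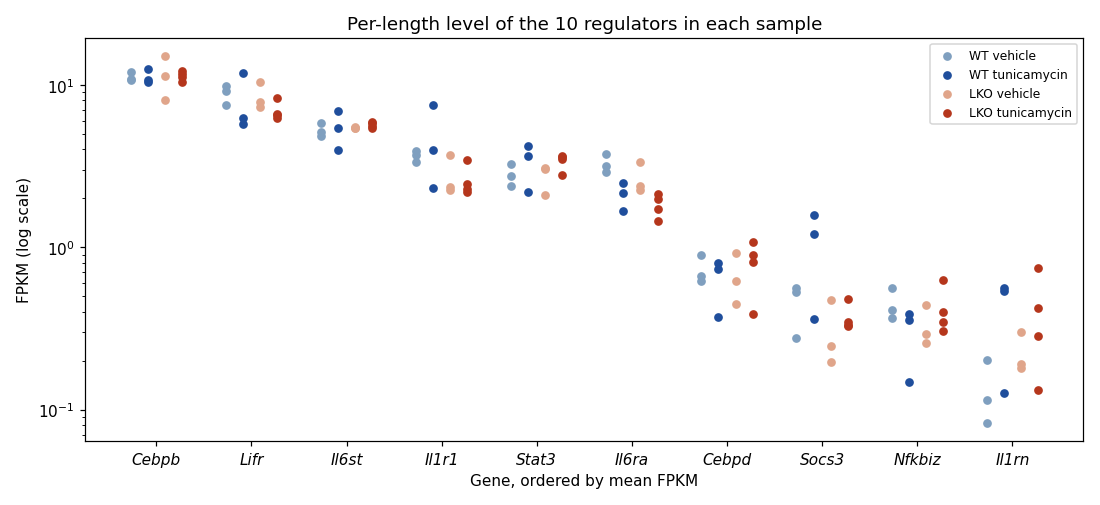
FPKM of each gene (log axis) by gene in order of mean level, 1 point per sample, coloured by group. Cebpb averages 11.3 FPKM and Il1rn 0.298 FPKM, and Il6ra is above Cebpd in all 13 samples.

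Il6ra, encoding the ligand-binding chain of the IL6 receptor (chr3:89869324-89913162, minus strand), was lower after tunicamycin in the average over genotypes. It was at 20.5, 23.6 and 27.4 CPM in WT vehicle 1 to 3 and at 18.3, 18.2 and 13.4 CPM in WT tunicamycin 1 to 3. In LKO it was at 16.1, 16.4 and 24.6 CPM with vehicle and at 15.2, 14.7, 12.1 and 10.3 CPM with tunicamycin. The tunicamycin and vehicle values did not overlap in WT or in LKO, and Il6ra was the only member of the 10 for which this held. Over all tested genes, 17.3% had groups that did not overlap in WT and 11.6% in LKO. Within either genotype, 1 of 10 members is thus no larger a share than the background. The share of all genes without overlap in both genotypes was not counted. Averaged over genotypes, the log2 fold change was -0.54 ± 0.13 (SE, 95% interval -0.81 to -0.26), a 1.45-fold fall, with an edgeR quasi-likelihood adjusted p of 0.0301 over all 9644 genes. Il6ra was the 1 member called in this averaged comparison, where 4.32% of all tested genes were called. Within genotypes the change was -0.51 ± 0.19 in WT (edgeR adjusted p 0.218) and -0.56 ± 0.18 in LKO (edgeR adjusted p 0.247), and neither alone passed. LKO against WT gave -0.31 with vehicle, -0.35 after tunicamycin and -0.33 averaged over treatments, with edgeR adjusted p-values of 0.694, 0.374 and 0.186. The averaged genotype difference passed in 1 of the 13 fits without a sample, that without LKO vehicle 3+4 (-0.45, edgeR adjusted p 0.0473). The averaged call was lost when any 1 of 6 samples was left out, with log2 fold changes of -0.55 and -0.49 without WT vehicle 2 and 3, -0.58 and -0.57 without WT tunicamycin 1 and 2, -0.42 without LKO vehicle 3+4 and -0.52 without LKO tunicamycin 3. It was also lost on log2(FPKM + 1) with no filter (-0.42, limma adjusted p 0.0787). Without WT tunicamycin 3 it was -0.47 (edgeR adjusted p 0.0294) and without LKO vehicle 2 it was -0.59 (edgeR adjusted p 0.0196). Because these are bulk libraries, fewer cells of a type and less RNA per cell cannot be told apart. Markers of neutrophils moved with tunicamycin as well: S100a8 rose by 2.51 (edgeR adjusted p 0.0273) and S100a9 by 2.34 (edgeR adjusted p 0.0257) on the log2 scale, averaged over genotypes. Reads were few, at 1 to 35 per sample for S100a8 and 0 to 19 for S100a9. These calls were lost in 7 and 6 of the 13 fits that left out a sample. They were both of the 2 tested genes of the neutrophil list, which summed to 0.384 to 0.875 CPM in WT vehicle, 0.617 to 8.39 in WT tunicamycin, 0.711 to 2.04 in LKO vehicle and 3.58 to 7.42 in LKO tunicamycin, with Retnlg at 0 in WT vehicle. Of the 8 Kupffer cell and macrophage markers 0 were called in that average, beside 4.32% of all genes. All 8 had a positive log2 fold change with tunicamycin in WT, in LKO and in the average. Their medians were 0.24, 0.51 and 0.36 in that order. They summed to 47.3 to 53.8 CPM in WT vehicle, 52.3 to 68.4 in WT tunicamycin, 36.3 to 58.5 in LKO vehicle and 54.2 to 109 in LKO tunicamycin. The part of these cells in the Il6ra result was not tested.

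**Figure D2:**
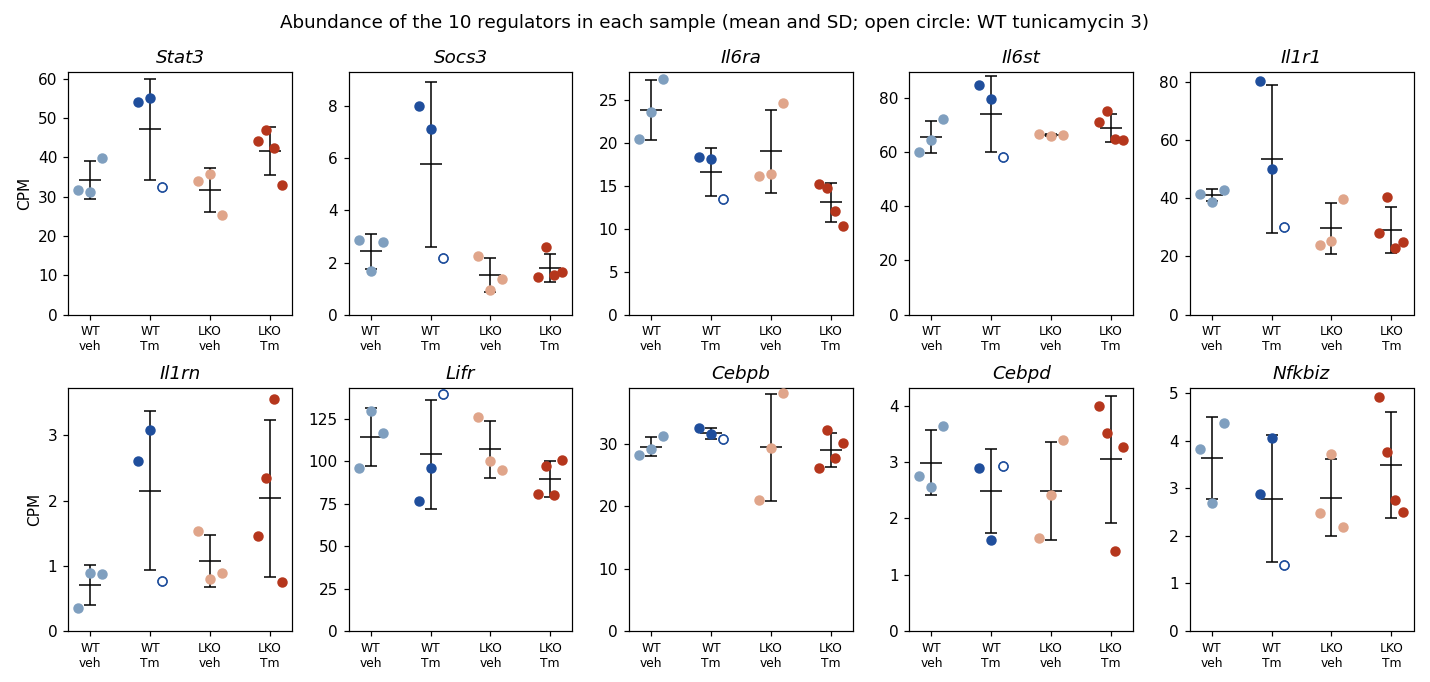
CPM of each of the 10 genes by group, 1 point per sample with the mean and SD, and with WT tunicamycin 3 drawn as an open circle. Il6ra is lower with tunicamycin in both genotypes without overlap, and Socs3 reaches 7.13 and 7.98 CPM in 2 of the 3 WT tunicamycin samples.

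The other gp130 receptor chains showed values close to those of vehicle. Il6st, which encodes gp130 itself (chr13:112464070-112506860, plus strand), lay at 60.1 to 72.0 CPM in WT vehicle, 58.04 to 84.5 in WT tunicamycin, 65.9 to 66.7 in LKO vehicle and 64.5 to 75.2 in LKO tunicamycin. Its log2 fold change with tunicamycin was 0.18 (95% interval -0.12 to 0.47) in WT and 0.05 (-0.22 to 0.32) in LKO. Lifr (chr15:7129572-7197489, plus strand) ran from 76.8 to 140 CPM over all groups, and its changes were -0.13 (-0.54 to 0.28) in WT and -0.25 (-0.64 to 0.13) in LKO. For LKO against WT, Il6st differed by 0.02 with vehicle and -0.10 after tunicamycin, and Lifr by -0.09 and -0.21. None of these passed the test, and all CPM ranges overlapped.

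Socs3, encoding the feedback inhibitor of gp130 signalling (chr11:117966087-117969366, minus strand), was lower in LKO than in WT liver after tunicamycin. It was at 2.87, 1.67 and 2.77 CPM in WT vehicle, and at 7.98, 7.13 and 2.16 CPM in WT tunicamycin. In LKO it was at 2.25, 0.949 and 1.36 CPM with vehicle, and at 1.47, 2.60, 1.53 and 1.63 CPM with tunicamycin. WT tunicamycin 1 and 2 stood above all other samples, while WT tunicamycin 3 lay within the range of the vehicle and LKO samples, so the groups overlapped. After tunicamycin, LKO against WT gave a log2 fold change of -1.69 ± 0.38 (SE, 95% interval -2.49 to -0.88), 3.22-fold lower, with an edgeR quasi-likelihood adjusted p of 0.0459. Socs3 was the 1 member called in this comparison, in which 0.861% of the tested genes were called in either direction and 0.55% as lower. Averaged over treatments, the difference was -1.22 ± 0.29 (95% interval -1.84 to -0.60), 2.33-fold lower, with an edgeR adjusted p of 0.0427. It was again the 1 member called, and 2.21% of all tested genes were called. With vehicle alone the difference was -0.75 ± 0.45 (edgeR adjusted p 0.692), and there 0.0415% of all genes and 0 of the 10 members were called. The tunicamycin change was 1.25 ± 0.40 (95% interval 0.40 to 2.09) in WT and 0.31 ± 0.43 (-0.60 to 1.22) in LKO, with edgeR adjusted p-values of 0.156 and 0.832. The test of the difference between these changes gave -0.93 ± 0.59 (-2.18 to 0.31), with an edgeR adjusted p of 0.982, so a genotype dependence of the Socs3 response was not shown. All of these comparisons share samples. Between genotypes, the CPM ranges overlapped for each of the 10 members with vehicle and after tunicamycin, whereas 15.1% and 12.9% of all tested genes did not overlap.

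The Socs3 calls rested on few reads and few samples. After tunicamycin the call was lost without any 1 of 9 samples: each WT vehicle sample (-1.68 in each case), WT tunicamycin 1 (-1.36) or 2 (-1.52), or LKO tunicamycin 1, 2, 3 or 4 (-1.61, -1.89, -1.61 and -1.63). Without WT tunicamycin 3 the difference was -2.08 (edgeR adjusted p 0.00515, with 0.644% of 9941 genes called), and without LKO vehicle 2 it was -1.69 (edgeR adjusted p 0.0448). Fitting only the groups compared also ended the call (-1.68, edgeR adjusted p 0.0937), as did log2(FPKM + 1) with no filter (-0.53, limma adjusted p 0.216). The average over treatments passed without WT tunicamycin 3 (-1.42), LKO vehicle 1 (-1.37) or LKO tunicamycin 2 (-1.32), and missed the threshold without any other single sample (-1.33 to -1.06). Markers of several liver cell types differed between genotypes in the same average. Spp1, a bile duct gene, was higher in LKO by 1.79 log2 (edgeR adjusted p 0.0270), Col1a1 by 1.88 (edgeR adjusted p 0.0101) and Col3a1 by 1.37 (edgeR adjusted p 0.0173), both fibroblast collagens. Hnf4a, a hepatocyte transcription factor, was lower by 0.34 (log2 fold change -0.34, edgeR adjusted p 0.0475). After tunicamycin, the comparison of the larger Socs3 difference, Hnf4a gave -0.54 (edgeR adjusted p 0.0405, lost in 9 of 13 fits without a sample, with values from -0.58 to -0.50). In the average over treatments these were 1 of 2 tested bile duct genes, 2 of 6 stellate and fibroblast genes and 1 of 7 hepatocyte genes, beside 2.21% of all tested genes. The lists did not move as 1: 2 of the 7 hepatocyte genes were higher in LKO and 5 lower. Of the 6 stellate and fibroblast genes 5 were higher and 1 lower. When 1 sample was left out, the Col1a1 call was kept in all 13 fits (though lost on log2(FPKM + 1) with no filter, at 0.50), while those of Spp1, Col3a1 and Hnf4a were lost in 4, 2 and 10. No gene of these lists was at 0 throughout a group. The stellate and fibroblast list summed to 73.5 to 121 CPM in WT vehicle and 98.4 to 133 in WT tunicamycin, and to 121 to 166 and 109 to 172 in the LKO groups. The bile duct list summed to 8.60 to 11.7, 8.49 to 42.5, 17.4 to 55.2 and 35.8 to 111 CPM in the same order. Their part in the Socs3 result was not tested.

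Stat3, the transcription factor that gp130 activates (chr11:100886810-100939511, minus strand), was at 31.9, 31.1 and 39.9 CPM in WT vehicle and at 54.1, 55.1 and 32.4 CPM in WT tunicamycin. In LKO it was at 34.004, 35.7 and 25.3 CPM with vehicle and at 44.2, 47.1, 42.3 and 32.9 CPM with tunicamycin. Most tunicamycin samples lay above their vehicle samples, but WT tunicamycin 3 and LKO tunicamycin 4 lay within the vehicle range. The log2 fold change was 0.46 ± 0.20 in WT, 0.40 ± 0.18 in LKO and 0.43 ± 0.13 averaged (95% interval 0.15 to 0.71), with an edgeR adjusted p of 0.0750 for the average, which missed the threshold. For LKO against WT it was -0.12 with vehicle and -0.18 after tunicamycin. Without WT tunicamycin 3 the averaged value was 0.53 (edgeR adjusted p 0.00541), and the WT value was 0.67 (edgeR adjusted p 0.0276), where 6.19% of genes were called. Without that sample, Socs3 in WT was 1.63 higher with tunicamycin (edgeR adjusted p 0.00451) and Il1rn 2.001 higher (edgeR adjusted p 0.0493), so 3 of 10 members were called in WT. That sample was singled out in these data for its likeness to vehicle, so these calls are no added support. With all samples, 0 of 10 members were called in WT (0.363% of all genes) and 0 of 10 in LKO (0.0311%).

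**Figure D3:**
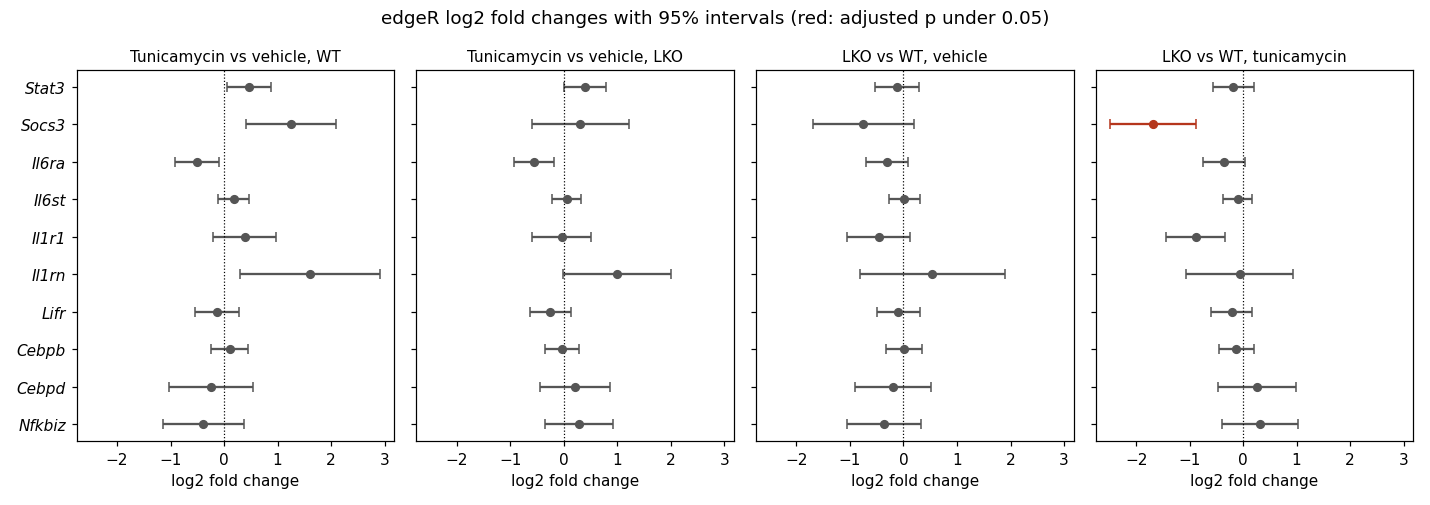
edgeR log2 fold changes (points) with 95% intervals (lines) for the 10 genes in 4 comparisons, with the adjusted p under 0.05 in red. Socs3 in LKO against WT after tunicamycin, at -1.69, is the 1 red point.

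The IL1 arm feeds the same acute-phase output through NF-kB. Il1r1, the signalling IL1 receptor (chr1:40225080-40316177, plus strand), was at 41.6, 38.8 and 42.9 CPM in WT vehicle and at 80.4, 49.9 and 30.1 CPM in WT tunicamycin. In LKO it was at 23.9, 25.4 and 39.6 CPM with vehicle and at 28.1, 40.5, 22.8 and 25.0 CPM with tunicamycin. The highest value belonged to WT tunicamycin 1, and WT and LKO overlapped in both treatments. Averaged over treatments, LKO against WT gave -0.67 ± 0.19 (95% interval -1.08 to -0.27, edgeR adjusted p 0.0797), and after tunicamycin alone -0.89 ± 0.26 (edgeR adjusted p 0.118). Without WT tunicamycin 3 these became -0.82 (edgeR adjusted p 0.0167) and -1.17 (edgeR adjusted p 0.0238). Without LKO vehicle 3+4 the averaged value was -0.81 (edgeR adjusted p 0.0298). The gene overlaps Gm38070 on the same strand, and whether reads in the shared stretch were counted for Il1r1 was not checked.

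Il1rn, encoding the secreted antagonist of that receptor (chr2:24336860-24351491, plus strand), was at 0.359, 0.897 and 0.875 CPM in WT vehicle and at 2.61, 3.08 and 0.772 CPM in WT tunicamycin. In LKO it was at 1.54, 0.803 and 0.890 CPM with vehicle and at 1.47, 2.34, 3.57 and 0.760 CPM with tunicamycin. These values rest on 3 to 35 reads, and the groups overlapped in both genotypes. The log2 fold change was 1.61 ± 0.62 in WT, 1.001 ± 0.48 in LKO and 1.31 ± 0.39 averaged, with an edgeR adjusted p of 0.0656 for the average. When 1 sample was left out, it passed without WT tunicamycin 3 (1.501, edgeR adjusted p 0.0122) and without LKO tunicamycin 4 (1.44, edgeR adjusted p 0.0322). Members called in alternatives that kept all samples are named in the closing section. The neutrophil sums given above were 8.39, 4.54 and 0.617 CPM in WT tunicamycin 1 to 3. In LKO tunicamycin 1 to 4 they were 3.997, 7.42, 4.59 and 3.58 CPM. Their part in the Il1rn values was not tested.

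The nuclear regulators did not pass the test in any comparison. Cebpb (chr2:167688915-167690432, plus strand) was at 28.3 to 31.2 CPM in WT vehicle, 30.9 to 32.6 in WT tunicamycin, 21.0 to 38.1 in LKO vehicle and 26.1 to 32.3 in LKO tunicamycin. Its log2 fold changes were 0.10 (95% interval -0.25 to 0.45) and -0.03 (-0.35 to 0.29) with tunicamycin in WT and LKO, and 0.01 (-0.33 to 0.35) and -0.13 (-0.45 to 0.20) for LKO against WT with vehicle and tunicamycin. Cebpd, encoding another C/EBP factor (chr16:15887286-15889545, plus strand), lay between 1.43 and 3.997 CPM, with changes of -0.24 and 0.21 with tunicamycin in WT and LKO. Nfkbiz, the IκB-like coactivator of NF-kB (chr16:55811377-55838641, minus strand), lay between 1.39 and 4.93 CPM, with changes of -0.38 and 0.29. For LKO against WT, Cebpd differed by -0.20 with vehicle and 0.26 after tunicamycin, and Nfkbiz by -0.36 and 0.31. The test of genotype dependence over the 10 members ran from -0.93 for Socs3 to 0.67 ± 0.47 for Nfkbiz, and edgeR called 0 of 9644 genes there, with 474 at an unadjusted p under 0.05 (4.91%) and none of the 10 among them.

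The rest of the pathway was described from lists of 82 genes, of which 66 were tested. In the average over genotypes, 21 of the 66 were called higher and 2 lower with tunicamycin. The median log2 fold change of the 66 was 0.21 against 0.01 for all genes, of which 4.32% were called. Of the genes called higher, 19 were acute-phase targets and 2 other receptors. The list medians were 0.24 for other receptors, 0.13 for other transcription factors, -0.01 for kinases and adaptors and -0.05 for inhibitors. In the average over treatments, 0 were called higher and 2 lower in LKO, beside 2.21% of all tested genes. Of the 25 acute-phase targets, 19 were called higher with tunicamycin in the average over genotypes, from C3, a complement protein, at 0.80 to Lcn2, an iron-binding siderophore carrier, at 3.65 on the log2 scale (edgeR adjusted p 0.0131 to 0.0429). Besides C3 and Lcn2, the called genes were Saa1, Saa2, Saa3, Orm1, Orm2, Hp, Hpx and the fibrinogen chains Fga, Fgb and Fgg. Apcs, Cp, Itih3, Itih4, Lrg1, Serpina3n and Steap4 completed the called genes. Those not called were Crp, Hamp, Lbp, Orm3, Pim1 and Saa4. The list's median was 1.37, against 0.01 for all genes. Because the list was chosen with earlier results of these data known, its count and median beside all genes are no independent evidence. The count of 19 dropped to 4 without WT vehicle 1 or WT tunicamycin 1 and to 8 without WT vehicle 2, and ran from 16 to 21 without any other single sample. On log2(FPKM + 1) with no filter 0 of the 25 were called, beside 0.116% of all genes, and the other alternatives that kept all samples gave from 14 to 22. With tunicamycin in LKO alone 0 of the 25 were called, beside 0.0311% of all genes. Higher with tunicamycin without overlap between groups were 16 in LKO and 5 in WT (5.03% and 8.63% of all genes). The list's median went the other way, at 1.75 in WT (25 of 25 positive) and 1.004 in LKO (23 of 25). Both medians use all samples, so they include WT tunicamycin 3 and LKO vehicle 2. On the log2 CPM scale above the WT vehicle mean, LKO vehicle 2 had Lcn2 at 5.81 and Saa1 at 5.25. The LKO tunicamycin samples had Lcn2 at 5.87 to 6.57 and Saa1 at 4.90 to 5.99. The test of genotype dependence called 0 of the 25, beside 0 of 9644 genes. WT tunicamycin 3 had Lcn2 at 5.56 CPM, within the WT vehicle range of 3.33 to 8.45 CPM. For LKO against WT with vehicle, 21 of the 25 were positive, with a median of 0.701 that includes LKO vehicle 2. Higher without overlap were 6, beside 15.1% of all tested genes without overlap in either direction. In that comparison 0 of the 25 were called, beside 0.0415% of all genes. In WT alone, Hpx and Steap4 passed, at 2.02 (edgeR adjusted p 0.0427) and 1.997 (edgeR adjusted p 0.0399). Both lost the call without WT tunicamycin 1 or 2, without any WT vehicle sample and without any LKO tunicamycin sample, with an edgeR adjusted p of at most 0.229 for Hpx and 0.226 for Steap4.

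Among the receptors of related cytokines, 8 of 11 genes were tested. Osmr, the receptor chain for oncostatin M, rose by 1.11 ± 0.26 with tunicamycin averaged over genotypes (edgeR adjusted p 0.0267), from a mean of 1.68 to 5.17 CPM in WT and from 2.04 to 3.10 CPM in LKO. Tnfrsf1a, a receptor for tumour necrosis factor, rose by 0.53 ± 0.14 (edgeR adjusted p 0.0427). The Osmr call was lost in 7 of 13 fits without a sample (0.88 to 1.29 over the 13 fits), and the Tnfrsf1a call in 10 (0.42 to 0.66). Il1rap, the co-receptor of Il1r1, fell by 0.40 ± 0.085 with tunicamycin (edgeR adjusted p 0.0189) and was lower in LKO by 0.58 ± 0.085 (log2 fold change -0.58, edgeR adjusted p 0.0025). It averaged 49.3 CPM in WT vehicle, 35.5 in WT tunicamycin, 31.3 in LKO vehicle and 24.9 in LKO tunicamycin, and the genotype call was kept without any 1 of the 13 samples. It was lost in 3 fits on FPKM, at -0.35 with no filter, -0.39 with a pseudocount of 0.1 and -0.33 without the LKO vehicle 2 column (limma adjusted p 0.0585, 0.0513 and 0.119). The tunicamycin call was lost without WT vehicle 1 (-0.38), WT tunicamycin 1 (-0.39) or LKO vehicle 3+4 (-0.36). Of the inhibitors, Nfkbia, which holds NF-kB in the cytoplasm, fell by 0.55 ± 0.15 with tunicamycin (edgeR adjusted p 0.0427), from 11.1 to 5.81 CPM in WT and from 10.8 to 9.67 CPM in LKO, and this call was lost in 9 of the 13 fits (-0.71 to -0.44). Of the 13 kinases and adaptors, Chuk, an IκB kinase, was lower in LKO by 0.31 (log2 fold change -0.31 ± 0.08, edgeR adjusted p 0.0481), and this call was lost in 12 of the 13 fits. None of the 10 tested other transcription factors was called. Of 11 ligand genes, 1 was tested: Il1a. Il6 and Il22 had 0 reads in all 13 samples, where 3 reads would amount to 0.178 to 0.486 CPM, and 7 of the 11 had under 10 reads in total.

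**Figure D4:**
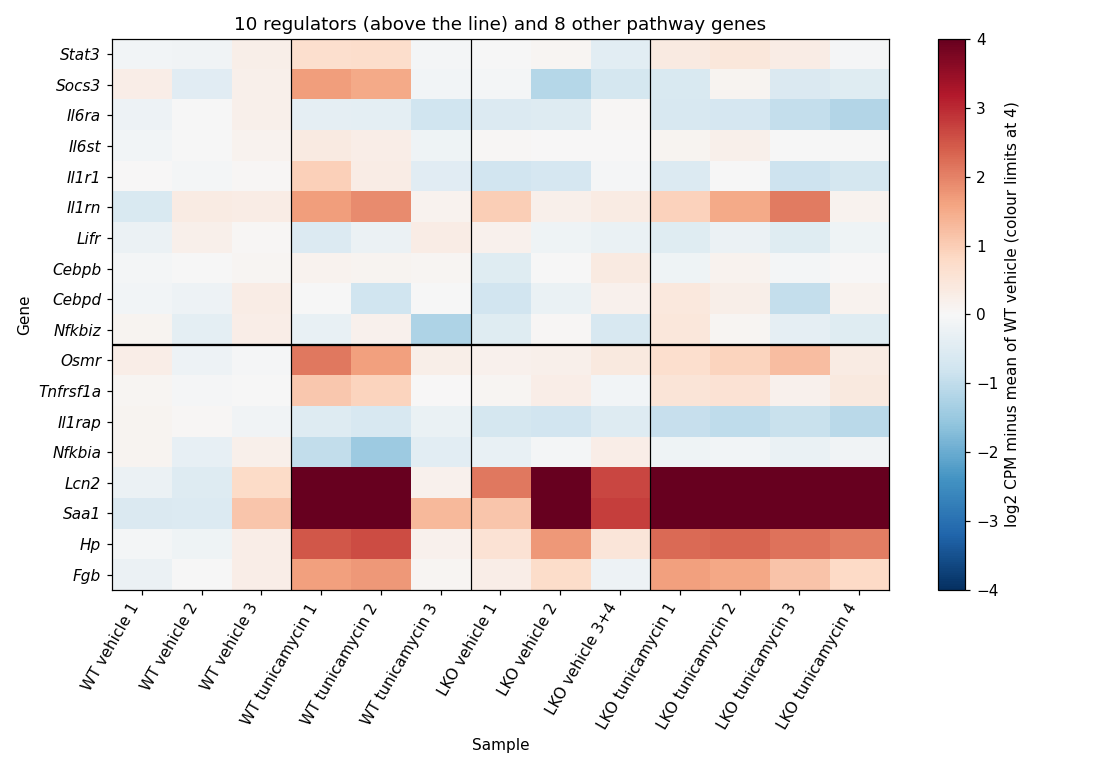
log2 CPM minus the WT vehicle mean for the 10 genes (above the line) and 8 pathway genes (below), by sample, with colour limits at 4 that Lcn2 and Saa1 exceed. WT tunicamycin 3 is near the vehicle level for Lcn2 at 0.18, while LKO vehicle 2 is high at 5.81.

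The genes whose pattern over the 13 samples was most like that of 3 members were found among 5998 genes whose log2 CPM averaged 2 or more. For Stat3 these were C1rl (Pearson r = 0.922), Lbp (0.917) and Dnajc12 (0.916). For Socs3 they were Slc39a14 (0.914), Efna1 (0.873) and 3110043O21Rik (0.871). For Cebpb they were Ywhah (0.884), Ttpa (0.866) and Mapk14 (0.826). The samples share treatment, genotype and library properties, so these values describe likeness only.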

How the data were processed

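Liver RNA was sequenced in 14 libraries, used as 13 samples after LKO vehicle libraries 3 and 4 were summed. The deposited counts are unnormalised STAR read counts for each gene, per the file headers. The sense-strand column was used, which held 99.5 to 99.6% of stranded reads. The deposited FPKM values are per-length levels, and the authors used Trimmomatic, STAR and Cufflinks with build mm10, per the submitters' processing notes. Tool versions and roles are not given in the sources used here. Unused per-sample columns numbered 0.

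Counts were fitted with edgeR 4.0.16 in R 4.3.3 (TMM, filterByExpr, quasi-likelihood test, 1 mean per group, 9 residual degrees of freedom, common biological coefficient of variation 0.155), with calls at an adjusted p (Benjamini-Hochberg, 9644 genes) below 0.05. The 7 comparisons were the 4 pairwise ones, 2 averages and the interaction. CPM, the reads of a gene scaled for library size, used TMM sizes that include Rn45s. Reads without molecular identifiers are not independent, so floors cover counting error only. Named genes are the members, the list genes called in any comparison, some list genes not called and, for 3 members, the 3 most alike. Members and lists were chosen with earlier results of these data known. Alternatives used limma 3.58.1, DESeq2 1.42.0 and FPKM on a log2 scale with a pseudocount of 1 or 0.1. The script was tested on simulated data.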

Additional observations from a re-analysis of the deposited data

Results flagged for a closer look

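The 4 LKO tunicamycin samples were examined for each of the 10 genes, and 1 value lay far from the others. Socs3 was at 2.60 CPM in LKO tunicamycin 2, while the other LKO tunicamycin samples were at 1.47, 1.53 and 1.63 CPM. Chance alone marks about 1 in 20 such sets. Without this sample the LKO against WT difference after tunicamycin was -1.89 (edgeR adjusted p 0.0738), against -1.69 with it.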

How the results depend on the processing

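Of the 10 members, the number called with tunicamycin in WT was 0, and became 1 with no filter on low counts (1.78% of all genes called), 3 without both WT tunicamycin 3 and LKO vehicle 2 (chosen after seeing the data; 6.57%), and 0 to 3 when 1 sample was left out. After tunicamycin, the number called between genotypes was 1, and became 0 with the replicate block, which was fitted on 14 libraries (0.929%), with only the groups compared (0.294%), and in each fit on FPKM (0.0427 to 0.868%). It became 2, Il1r1 and Socs3, with no filter (1.61%) and without both samples (0.798%), and 0 to 2 when 1 sample was left out. In the average over genotypes the number called was 1, and became 3 with 14 libraries and no block (6.89%) and stayed at 3 with the block added (7.86%). Those 3 were Stat3, Il1rn and Il6ra. It was 2, Stat3 and Il6ra, with DESeq2 (9.53% of 5207 genes with an adjusted p). With no filter (4.70%) or without both samples (11.9%) it was 4: Stat3, Socs3, Il1rn and Il6ra. It was 0 with log2(FPKM + 1) and no filter (0.116%), and 0 to 4 when 1 sample was left out. In the average over treatments it was 1, and became 0 with the replicate block on 14 libraries (2.64%) and in each FPKM fit (0.178 to 0.912%). It became 2, Il1r1 and Socs3, with DESeq2 (2.26%), with no filter (3.16%) or without both samples (1.27%), and 0 to 2 when 1 sample was left out. With the replicate block Socs3 was -1.57 after tunicamycin (edgeR adjusted p 0.0581) and -1.14 averaged (edgeR adjusted p 0.0506). Whether replicate numbers pair the samples was not settled: 3 of 19 same-numbered pairs correlated above 0.1, against 5 of 54 others. The correlations ran from -0.119 to 0.143 and from -0.221 to 0.203 in that order. The FPKM filter removed Socs3, Il1rn, Cebpd and Nfkbiz, which have a mean below 1 FPKM. The number of all genes called between genotypes after tunicamycin ran from 0 to 183 when 1 sample was left out and from 7 to 261 otherwise. The corresponding ranges were 62 to 413 and 8 to 514 for the average over treatments, 0 to 17 and 0 to 84 with vehicle, 59 to 1085 and 19 to 1180 for the average over genotypes, 0 to 67 and 0 to 269 for tunicamycin in LKO, 0 to 615 and 0 to 650 in WT, and 0 to 2 and 0 to 1 for the interaction. Scaling to total counts moved the median of all genes by -0.19 for tunicamycin in WT, 0.15 between genotypes after tunicamycin, -0.12 in the average over genotypes and 0.15 for the interaction.

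Some small changes of members that missed the threshold changed sign, and the cause was not tested. Between genotypes after tunicamycin, Stat3 became 0.0351 in the log2(FPKM + 1) fits and 0.0540 with a pseudocount of 0.1, Il6st 0.0429 with total counts, 0.0841 and 0.103 in the same FPKM fits, and Il1rn 0.104 with the replicate block and 0.0872 with total counts. In the same comparison Cebpb became 0.0227 with total counts and 0.0110 and 0.0121 in the FPKM fits, and without both samples Lifr became 0.0552 and Nfkbiz -0.00622. With total counts, tunicamycin in WT gave -0.0154 for Il6st and -0.0890 for Cebpb. Tunicamycin in LKO gave 0.0173, 0.0219 and 0.0283 for Cebpb in the FPKM fits, the last without the LKO vehicle 2 column (chosen after seeing the data). Between genotypes with vehicle, Cebpb became -0.00642 with DESeq2, -0.00047 with no filter, and -0.00360, -0.00717 and -0.0146 in the FPKM fits, and Lifr 0.0395 without that column. When 1 sample was left out, values ran from -0.224 to 0.182 for Cebpb, -0.0521 to 0.0824 for Il6st and -0.220 to 0.0253 for Stat3 between genotypes with vehicle. They ran from -0.527 to 0.251 for Il1rn, -0.396 to 0.0540 for Lifr and -0.00715 to 0.659 for Nfkbiz after tunicamycin. With tunicamycin they ran from -0.216 to 0.199 for Cebpb and -0.232 to 0.229 for Il1r1 in LKO, and from -0.0395 to 0.667 for Il1r1 and -0.405 to 0.0451 for Lifr in WT. The depth of 3 to 58 reads limits the 4 lowest genes.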
